A study of Mus musculus with 20 samples.

Results

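Expression of the cytoplasmic ribosomal protein genes was examined in hypothalamus slices of wild-type C57BL/6 mice. Members were the protein-coding genes whose symbol starts with Rpl or Rps followed by a number or by p, leaving out the S6 kinases. The rule gave 91 of the 55471 genes counted, 57 named for the large and 34 for the small subunit. Of these, 86 had enough counts to be tested among 17893 genes, and Rpl3l, Rpl9-ps1, Rpl10l, Rpl36-ps4 and Rpl39l did not. Among the members were 6 with pseudogene-style names that the annotation calls protein-coding, and Rps19bp1, which codes for a binding partner of the S19 protein and not for a ribosomal protein.

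RNA sequencing covered 7 libraries of mice given a risperidone diet ad libitum (RISP_Ad.lib), 6 of pair-fed mice on the risperidone diet (RISP_PF) and 7 of ad libitum control mice (CON_Ad.lib). Risperidone, an atypical antipsychotic, blocks receptors of dopamine and serotonin, and pair-feeding limits the food to what another group eats. All mice were wild type, the risperidone diet lasted 4 weeks, and the sources used here give no age. The labels do not state that each library is a separate mouse, so p-values measure the spread between these libraries, which may be in part technical.

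Cytoplasmic ribosomes are built from a small subunit that reads the mRNA and a large subunit that joins amino acids, and their proteins are made in nearly equal numbers. Many mRNAs of ribosomal proteins begin with a cytosine followed by a run of pyrimidines, the terminal oligopyrimidine (TOP) tract, through which mTORC1, a kinase complex that senses nutrients, controls their translation. Phosphorylation of the ribosomal protein S6 by the S6 kinases is widely used as a readout of mTORC1 activity in hypothalamic neurons.

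The start sites of 6 members are shown, since the tract at the start of the mRNA is what this family is known for. They were taken from the named members with a cytosine at position 1 followed by at least 4 pyrimidines. Each window runs from 15 bases before the RefSeq start to 15 bases from it on (GRCm38.p6), and capitals mark the tract from position 1.
Rps6, chr4:86857353-86857382, minus strand: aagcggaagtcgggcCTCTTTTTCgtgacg
Rps10, chr17:27635230-27635259, minus strand: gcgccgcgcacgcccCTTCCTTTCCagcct
Rps27, chr3:90213634-90213663, minus strand: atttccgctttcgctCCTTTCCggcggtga
Rps27rt, chr9:114982725-114982754, minus strand: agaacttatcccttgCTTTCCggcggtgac
Rpl38, chr11:114668565-114668594, plus strand: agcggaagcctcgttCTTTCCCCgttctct
Rplp2, chr7:141447636-141447665, plus strand: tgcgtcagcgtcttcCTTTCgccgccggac
Within these windows Rps27 and its retrogene Rps27rt shared a run of 14 bases, from position 2 in Rps27 and from position 1 in Rps27rt, and no run longer than 3 bases before the start.

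The RefSeq table held starts for 65 of the 91 members and for 27025 genes in all. A cytosine at position 1 followed by at least 4 pyrimidines stood at a start of 14 of the 65 members (21.5%), against 3.01% of all genes. When the cytosine could lie within 3 bases of position 1, the tract was found in 26 members (40%), against 13.5% of all genes. On either strand of the 300 bases around the start, the letters CCGGAAG, the core that ETS-family factors bind, stood in 38.5% of the members and 9.93% of all genes. The letters TCTCGCGA stood in 16.9% of the members and 1.13% of all genes, and GATGGCG, the core of YY1 sites, in 7.69% and 4.04%. The letters TATAAA stood in 10.8% of the members, against 15.7% of all genes. Each motif was searched on its own, and these are matches of letters and not bound sites. Some genes have more than 1 start, and over genes with a single start the tract at position 1 stood in 21.8% of members and 2.47% of all genes.

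Total counts were 17316043 to 18606543 in 19 libraries and 9748005 in ad libitum risperidone library 3. In that library genes annotated as or resembling ribosomal RNA took 29.2% of the counts, against 2.43% to 5.69% in the others. Ad libitum risperidone library 1 stood apart in its tissue markers. Its tested markers of cortex, hippocampus and amygdala lay at a median of 2.78 above their means over all libraries on the log2 scale, and its 6 oligodendrocyte markers at −1.18. Counts of members and the fold changes they rest on are therefore also given without these 2 libraries. All 9 markers of hypothalamic neurons were detected, and their summed level ranged from 535 to 1328 CPM (counts scaled by library size with TMM) in ad libitum risperidone, 889 to 1284 CPM in pair-fed risperidone and 1137 to 1498 CPM in control.

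The members' levels differed widely within the control hypothalamus. Per kb of exonic length, the highest levels in control libraries were those of Rps15, a protein of the small subunit head, at 544 ± 31.0 CPM per kb (SD, n = 7), and of Rplp1, a stalk protein of the large subunit, at 418 ± 31.0 CPM per kb. Every control library held Rps15 (484 to 567 CPM per kb) above the highest Rplp1 value (464 CPM per kb). Rps3a1, a small subunit protein, stood at 303 ± 9.63 CPM per kb, and Rpl38, a large subunit protein, at 298 ± 22.8 CPM per kb. These neighbours did not differ beyond their spread, since Rpl38 ranged from 260 to 330 CPM per kb around the Rps3a1 range of 284 to 315 CPM per kb. Rpl4 followed at 230 ± 9.72 CPM per kb. The order depended on the length used, a check chosen after seeing the data. With the length of the principal transcript in place of all exons, Rps15 stayed highest at 685 CPM per kb, but Rps27 came next at 515 CPM per kb, against 170 CPM per kb by all exons.

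At the other end, Rpl24 stood at 0.792 ± 0.176 CPM per kb and Rps10 at 1.20 ± 0.162 CPM per kb in control (SD, n = 7), against a median of 91.8 CPM per kb over the 76 members that are no paralog, no pseudogene-style name and not Rps19bp1. Both code for core ribosomal proteins, and Rps10 carries the long tract shown above. Rpl24 (chr16:55966275-55971435, GRCm38) had 254 counts in the 20 libraries together, and Rps10 (chr17:27630418-27636669) had 930. Exons of Rpl24 are shared on the same strand with Gm28037, and exons of Rps10 with RPS10-NUDT3, and these partners had 0 counts. Rpl13a shares exons with Gm45713, which also had 0 counts, and stood at 9.54 CPM per kb, but Rpl19 shares exons with Gm11629 (94 counts) and stood at 156 CPM per kb. The other 72 of the 76 members shared same-strand exons with small RNA genes at most, and went no lower than Rps20 at 15.3 CPM per kb. Whether reads in shared exons were left out in counting was not tested, so the levels of these 4 genes are uncertain. Rpl36a-ps1, Rpl10-ps3 and the retrogene Rpl36al completed the lowest 5 of the tested members, at 1.16, 1.11 and 0.475 CPM per kb.

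**Figure D1:**
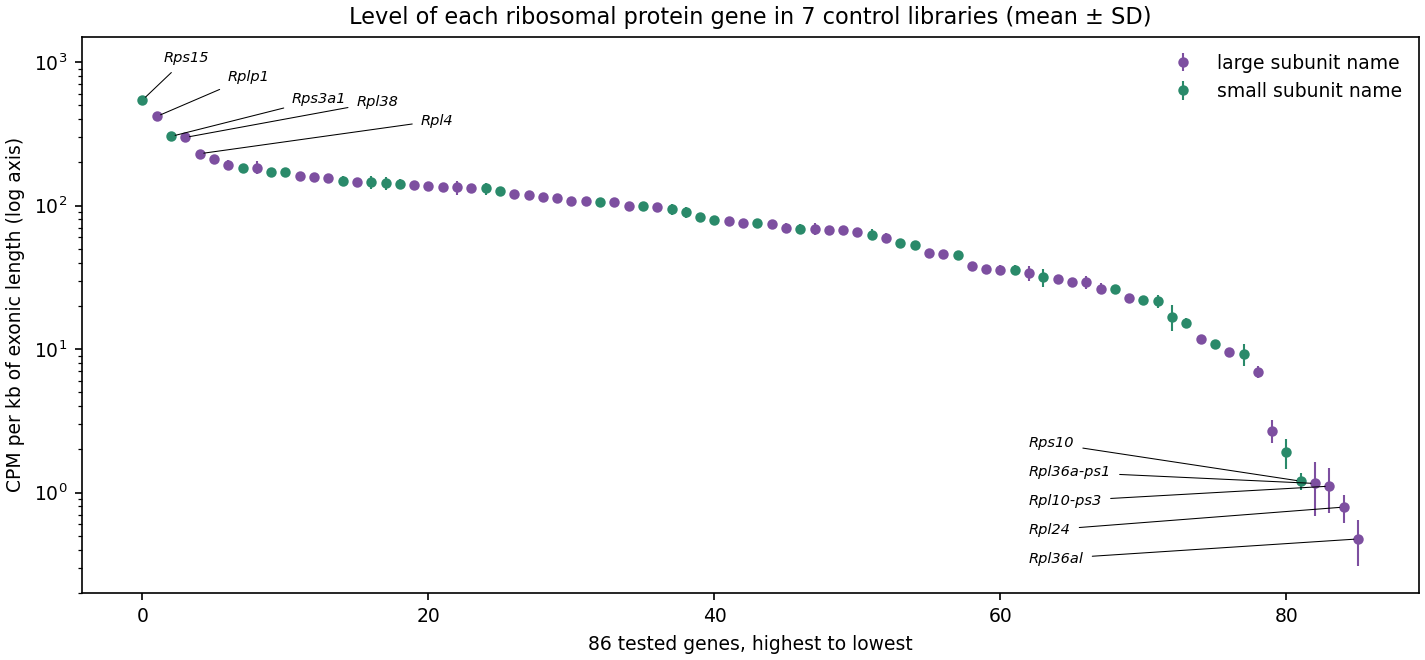
Mean level of each of the 86 tested ribosomal protein genes in the 7 control libraries, in CPM per kb of exonic length on a log axis, with bars of 1 SD and colours for the subunit in the gene's name. Most genes lie between 15 and 300 CPM per kb, and Rpl24 and Rpl36al lie lowest, both under 1 CPM per kb.

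Paralogs were minor beside their partners. Shares were taken of the pair's summed CPM per kb of exonic length. Rpl22l1, the paralog of Rpl22 in the large subunit, made up 22.8 ± 3.51% in ad libitum risperidone (n = 7), 22.9 ± 1.78% in pair-fed risperidone (n = 6) and 23.5 ± 2.15% in control (n = 7; SD). Rpl7l1, a factor of large subunit assembly related to Rpl7, made up 12.8 ± 0.673%, 12.6 ± 0.496% and 13.4 ± 0.506% in the same groups. The shares of these pairs overlapped between the groups. Rps27l made up 5.13% of its pair with Rps27 in ad libitum risperidone, 4.77% in pair-fed risperidone and 5.09% in control. The retrogene Rps27rt made up 8.68%, 8.97% and 8.93%, and because it is a near copy of Rps27, reads could be split between these genes. Such shares also depend on the length used. Before scaling by length, Rps27rt ranged from 4.60 to 8.21 CPM in control, and Rps27 from 157 to 198 CPM. The exons of Rpl22l1 overlap Gm33051 on the opposite strand, and the sources used here do not give the strand setting of the counting.

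Paralogs known from testis and striated muscle were near or at 0. Rpl10l, a testis copy of the X-linked Rpl10, had 0 counts in 20 libraries, which allows a level of up to 0.00862 CPM (3 counts over all libraries, counting error only). Rpl39l, a testis copy of Rpl39, had 7 counts in the ad libitum risperidone libraries together, 2 in pair-fed risperidone and 1 in control. Rpl3l, the muscle form of Rpl3, had 29, 44 and 55 counts in the same order. Rpl36al, a retrogene of Rpl36a, made up 0.667% of its pair's CPM per kb in ad libitum risperidone, 0.667% in pair-fed risperidone and 0.779% in control. These shares rest on 58, 61 and 82 counts of Rpl36al, which shares exons with Gm49383. Outside the members, 292 pseudogene rows are named after ribosomal proteins. They held 49446 counts, 1.08% of the members' 4558799 counts, and Rps4l, Rpl3-ps1 and Rps6-ps4 held 28.2% of that sum.

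The members' summed level had its lowest median and its widest spread in ad libitum risperidone. Their summed CPM was 10495 to 14135 (median 12191) in ad libitum risperidone, 12713 to 14560 (median 13237) in pair-fed risperidone and 11866 to 13760 (median 13072) in control. The groups overlapped, and the lowest sums belonged to ad libitum libraries 3 (10495 CPM) and 1 (11480 CPM). The means were 12403 ± 1281 CPM (SD, n = 7) in ad libitum risperidone, 13456 ± 686 CPM (n = 6) in pair-fed risperidone and 12993 ± 643 CPM (n = 7) in control. Without libraries 1 and 3 the ad libitum mean was 12969 ± 969 CPM (n = 5), beside the control mean. In bulk RNA, fewer cells rich in these mRNAs and less of them per cell cannot be told apart.

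Large and small subunit genes kept their proportion while the sums varied. The ratio of the summed CPM of large to small subunit genes was 1.62 ± 0.0172 in ad libitum risperidone (SD, n = 7), 1.61 ± 0.0192 in pair-fed risperidone (n = 6) and 1.62 ± 0.0126 in control (n = 7). Over all 20 libraries it stayed between 1.59 and 1.65.

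**Figure D2:**
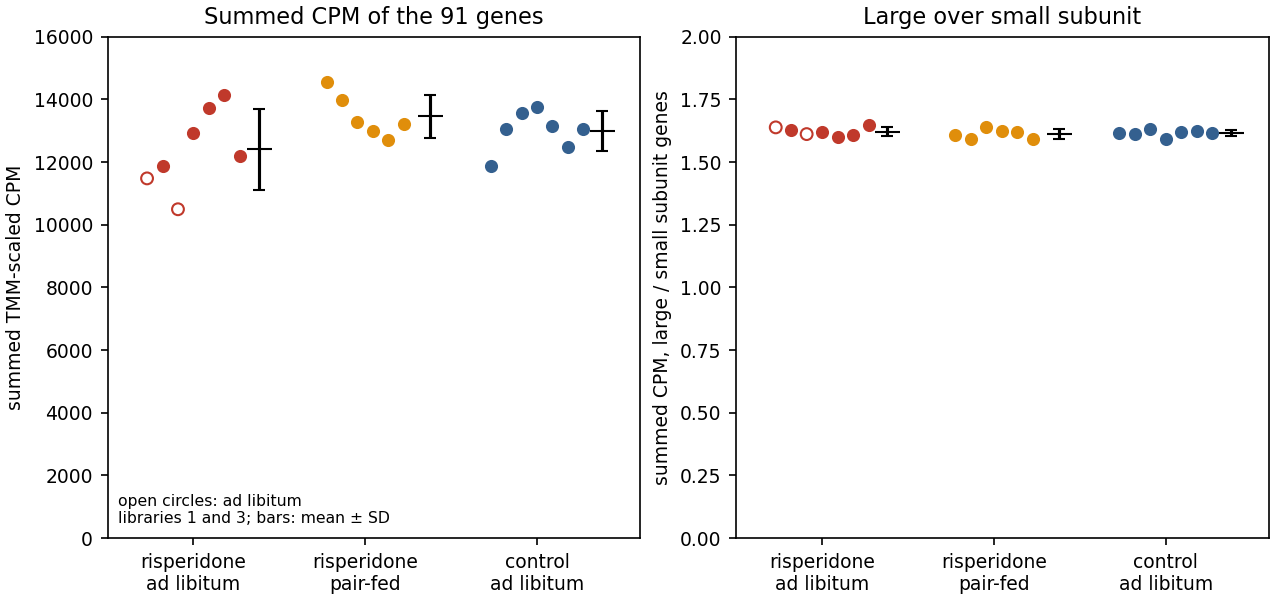
Summed TMM-scaled CPM of the 91 ribosomal protein genes (left) and the ratio of large to small subunit genes (right), 1 point per library, with the mean and SD of each group as a black cross and bar. Ad libitum risperidone libraries 3 and 1 (open circles) have the lowest sums, at 10495 and 11480 CPM, while the ratio stays between 1.59 and 1.65 in all libraries.

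Ad libitum risperidone was first set against control, the contrast for the diet under free feeding. No member passed the test there (0 of 86 at an adjusted p under 0.05, edgeR quasi-likelihood test with Benjamini-Hochberg adjustment over all genes), against 0.0615% of all genes tested. At an unadjusted p under 0.05, 4 members lay below control and 0 above, against 5.97% and 7.14% of all genes. Leaving out single libraries moved the 4 to between 1 and 19. It was 1 in the absence of ad libitum library 1 or 3 or control library 4, and 2 with ad libitum library 2 or control library 3 removed. Dropping ad libitum library 5 gave 13, and dropping library 6 gave 19. Of the members, 81 had a log2 fold change below 0 and 5 above, with a median of −0.078, while 52.9% of all genes lay above 0, with a median of 0.0077. Without libraries 1 and 3, 0 members passed (0.267% of all genes). Of the log2 fold changes 50 lay below and 36 above 0, with a median of −0.0088, while 49.7% of all genes lay above 0. Then 1 member lay below control and 0 above at an unadjusted p under 0.05, against 6.46% and 6.04% of all genes. No member had groups that did not overlap, which 0.106% of all genes had with ad libitum risperidone higher and 0.224% with it lower.

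Rpl7l1 had the smallest p of this comparison. It ranged from 33.8 to 41.8 CPM (median 37.7) in ad libitum risperidone and from 40.2 to 42.5 CPM (median 40.6) in control. Of the 7 ad libitum libraries, 6 lay below every control library and 1 within their range. Its log2 fold change was −0.11 (adjusted p = 0.234, SE 0.038, edgeR), and −0.088 (adjusted p = 0.322) without libraries 1 and 3. Rpl10, an X-linked gene of a late-joining large subunit protein, ranged from 265 to 327 CPM (median 299.5) in ad libitum risperidone and from 288 to 341 CPM (median 328) in control, with a log2 fold change of −0.13 (adjusted p = 0.325, SE 0.054), and −0.071 (adjusted p = 0.586) without libraries 1 and 3. These ranges overlapped. Rps28, a small subunit protein, ranged from 36.3 to 56.9 CPM (median 48.7) in ad libitum risperidone and from 42.5 to 66.9 CPM (median 52.8) in control. It had a log2 fold change of −0.24 (adjusted p = 0.331, SE 0.10), and −0.15 (adjusted p = 0.57) without libraries 1 and 3. Its exons overlap Kank3 on the opposite strand. Above control, the smallest p belonged to Rpl29, a large subunit protein, with 0.099 (adjusted p = 0.487, SE 0.059), followed by Rps19bp1 with 0.037 (adjusted p = 0.872) and Rps2, a small subunit protein whose exons overlap Snhg9, with 0.015 (adjusted p = 0.958). With libraries 1 and 3 left out, Rpl29 had 0.070 and Rps19bp1 0.072, and the direction of Rps2 turned, at −0.0069 (adjusted p = 0.982).

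Pair-fed risperidone was then set against control, so that diet and feeding mode differed together. No member passed the test (0 of 86), against 0.486% of all genes. At an unadjusted p under 0.05, 1 member lay above control and 0 below, against 3.06% and 3.6% of all genes. Here 71 members had a log2 fold change above 0 and 15 below, with a median of 0.046, while 51.5% of all genes lay above 0, with a median of 0.0026. Groups did not overlap for 0 members, against 0.341% of all genes with pair-fed risperidone higher and 0.861% with it lower. Without ad libitum libraries 1 and 3, which enter this comparison only through the shared fit, 0 members passed (1.39% of all genes), and 71 lay above 0 (50.3% of all genes). The count above 0 was 56, with a median of 0.024, without pair-fed library 1, and 62, with a median of 0.028, without control library 1. With ad libitum libraries 1 and 3 left out, there were 4 members above control and 0 below at an unadjusted p under 0.05, against 5.2% and 6.08% of all genes.

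Rpl9, a large subunit protein, was the member under that unadjusted threshold. It ranged from 210.5 to 229.7 CPM (median 216) in pair-fed risperidone and from 188 to 212 CPM (median 205) in control. All 6 pair-fed libraries lay above the control mean and 4 above every control library, and the log2 fold change was 0.11 (adjusted p = 0.75, SE 0.055), and 0.11 (adjusted p = 0.289) without ad libitum libraries 1 and 3. Rpl30 (0.14, SE 0.072, adjusted p = 0.77), which overlaps D730044K07Rik on the opposite strand and is also of the large subunit, came next. Below control, Rpl24 (−0.36, SE 0.23), Rps10 (−0.090, SE 0.12) and Rpl36al (−0.20, SE 0.29) had the smallest p, each with an adjusted p of 0.878 or more. These 3 are low-count genes with shared exons.

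Between the risperidone groups the diet was the same and the feeding differed. The fold change of pair-fed over ad libitum risperidone also tests whether their changes against control differ. No member passed the test (0 of 86), against 0.397% of all genes. At an unadjusted p under 0.05, 23 members (26.7%) lay above ad libitum risperidone and 0 below, against 6.09% and 7.44% of all genes. That count depended on single libraries. It was 9 when pair-fed library 1 was dropped and 11 when pair-fed library 2 was. Dropping ad libitum library 3, 1, 2, 5 or 6 gave 10, 11, 13, 41 and 55 in that order, with 0 below in each case. Of the members, 83 had a log2 fold change above 0 and 3 below, with a median of 0.12, while 48.4% of all genes lay above 0, with a median of −0.0049. Groups did not overlap for 0 members, against 0.263% of all genes with pair-fed risperidone higher and 0.369% with it lower. Without libraries 1 and 3, 0 members passed (0.79% of all genes). At an unadjusted p under 0.05, 5 members (5.81%) then lay above and 0 below, against 5.18% and 5.28% of all genes. The median was 0.052, with 76 members above and 10 below 0, while 50.5% of all genes lay above 0. DESeq2 and limma-voom also called 0 members in each comparison. The 3 comparisons share groups, so their values for a gene are not independent.

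Rpl11 and Rpl5, which with 5S rRNA form the particle that binds MDM2 and so stabilises p53 when ribosome assembly is disturbed, had the smallest p. Rpl11 (chr4:136028265-136053428) ranged from 181 to 202 CPM (median 194) in pair-fed risperidone and from 139 to 198 CPM (median 162) in ad libitum risperidone, beside 165 to 194 CPM (median 179) in control. All 6 pair-fed libraries lay above the ad libitum mean and 2 above every ad libitum library. The log2 fold change was 0.22 (adjusted p = 0.172, SE 0.065, edgeR) and 0.14 (adjusted p = 0.298) without libraries 1 and 3. Rpl11 passed the test when ad libitum library 5 was left out, with an adjusted p of 0.0461, and in none of the other 33 settings tried. Rpl5 ranged from 141 to 156 CPM (median 148) in pair-fed risperidone and from 116 to 151 CPM (median 131) in ad libitum risperidone, a log2 fold change of 0.16 (adjusted p = 0.211, SE 0.054), and overlaps Fam69a on the opposite strand. Its value was 0.11 (adjusted p = 0.412) without libraries 1 and 3. Rpl27a, a large subunit protein, ranged from 184 to 207 CPM (median 196) in pair-fed risperidone and from 139 to 206 CPM (median 172) in ad libitum risperidone. These ranges overlapped, and the log2 fold change was 0.19 (adjusted p = 0.226, SE 0.066), or 0.12 (adjusted p = 0.457) without libraries 1 and 3.

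The 3 members below ad libitum risperidone were Rpl24 (−0.18, SE 0.24), Rpl29 (−0.020, SE 0.062) and Rps2 (−0.012, SE 0.071), each with an adjusted p of 0.776 or more. Without libraries 1 and 3, Rpl29 stood at 0.0059 and Rps2 at 0.0079. For Rps2 the groups overlapped almost fully, at 249 to 314 CPM (median 269.7) in pair-fed and 237 to 332 CPM (median 282) in ad libitum risperidone.

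When both risperidone groups were averaged and set against control, no member passed the test (0 of 86), against 0.33% of all genes, and 0 members were under an unadjusted p of 0.05, against 3.55% of all genes higher and 4.27% lower. The median was −0.011, with 35 members above and 51 below 0, while 53.4% of all genes lay above 0. With ad libitum libraries 1 and 3 left out, the direction of the median turned, to 0.019, with 57 members above and 29 below 0, while 49.7% of all genes lay above 0. Then 0 members passed (1.07% of all genes) and 0 were under an unadjusted p of 0.05, against 5.73% of all genes higher and 6.41% lower. Leaving out single libraries gave medians of −0.031 to 0.0056. Rpl7l1 had the smallest p (−0.067, SE 0.033, adjusted p = 0.64, with 8 of 13 risperidone libraries below every control library). Rpl10 (−0.075), Rpl24 (−0.27), Rpl29 (0.088) and Rpl9 (0.045) were also among the smallest p, each with an adjusted p of 0.706 or more. Rpl7l1 had −0.055, Rpl10 −0.049, Rpl24 −0.29, Rpl29 0.073 and Rpl9 0.068 with the 2 libraries left out, each with an adjusted p of 0.489 or more.

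**Figure D3:**
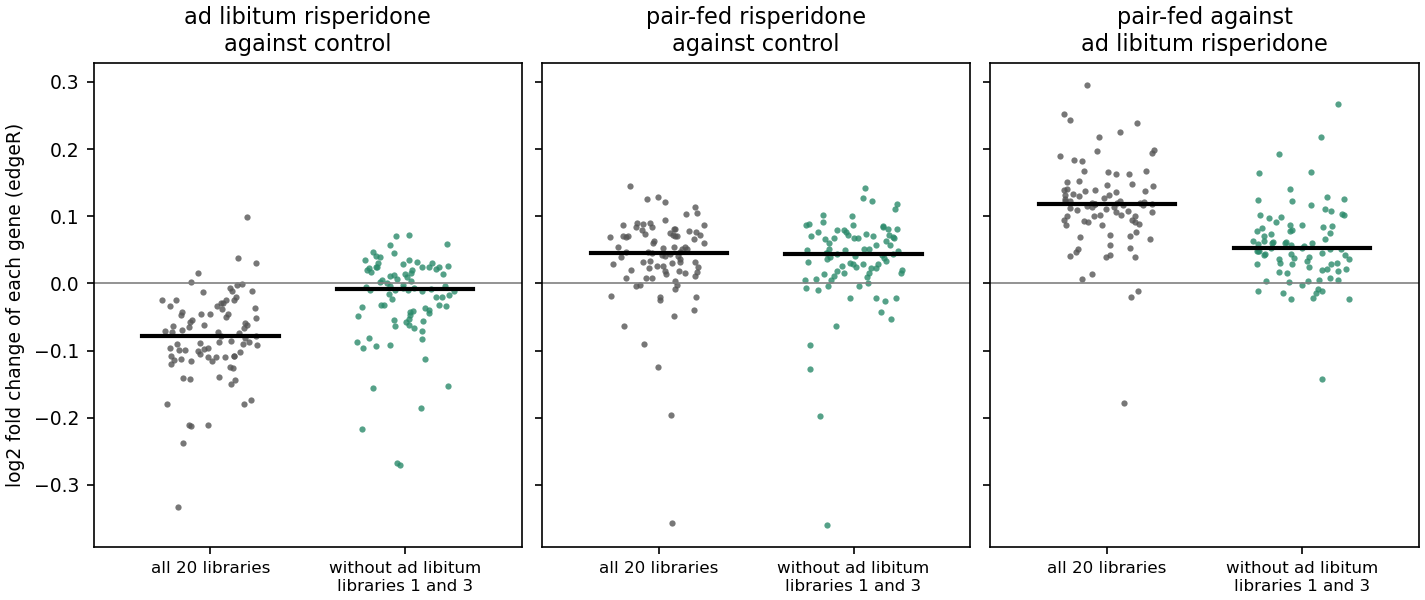
Log2 fold change of each of the 86 tested ribosomal protein genes in 3 comparisons, with all 20 libraries (grey) and without ad libitum risperidone libraries 1 and 3 (green), and the median as a black line. The median of ad libitum risperidone against control is −0.078 with all libraries and −0.0088 without the 2, and that of pair-fed against ad libitum risperidone is 0.12 and 0.052.

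Members with known signalling or structural roles were measured in every library, and none passed the test. Rps6 ranged from 278 to 331 CPM (median 302) in pair-fed risperidone, from 223 to 319 CPM (median 287) in ad libitum risperidone and from 269.6 to 314 CPM (median 294) in control. Its log2 fold change against control was 0.054 (95% interval −0.089 to 0.20) in pair-fed and −0.065 (−0.20 to 0.072) in ad libitum risperidone. Rps27a, which is made as a fusion with ubiquitin, had 0.12 (−0.031 to 0.27) in pair-fed and −0.046 (−0.19 to 0.10) in ad libitum risperidone, and overlaps Clhc1 on the opposite strand. The stalk protein genes Rplp0, Rplp1 and Rplp2 had 0.053, 0.081 and −0.040 in pair-fed and 0.0017, −0.024 and −0.14 in ad libitum risperidone, with intervals that all included 0. When ad libitum libraries 1 and 3 were left out, several of the ad libitum values turned direction. Rps6 then had 0.030 (95% interval −0.064 to 0.12) in ad libitum risperidone, beside 0.052 in pair-fed. Rps27a had 0.12 (0.0052 to 0.23, adjusted p = 0.41) in pair-fed and 0.040 (−0.079 to 0.16) in ad libitum risperidone. Rplp0, Rplp1 and Rplp2 had 0.050, 0.079 and −0.043 in pair-fed and 0.045, 0.035 and −0.032 in ad libitum risperidone, so that Rps6, Rps27a and Rplp1 turned in the ad libitum group.

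Of the members whose starts are printed above, Rps27, a small subunit protein, lay at 175 to 209.6 CPM (median 188) in pair-fed risperidone, 133 to 204 CPM (median 156) in ad libitum risperidone and 157 to 198 CPM (median 179) in control. The groups overlapped, with ad libitum risperidone the most spread. In pair-fed over ad libitum risperidone its log2 fold change was 0.23 (adjusted p = 0.25, SE 0.082, edgeR), and that of its retrogene Rps27rt was 0.30 (adjusted p = 0.421, SE 0.16). Rps10, which carries the longest printed tract, had 0.0061 (adjusted p = 0.993, SE 0.13). With libraries 1 and 3 left out, these were 0.17 (adjusted p = 0.474) for Rps27, 0.27 (adjusted p = 0.567) for Rps27rt and 0.063 (adjusted p = 0.911) for Rps10.

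The members varied together from library to library. Within-group deviations of the 86 tested members had a mean pairwise Pearson r of 0.579 over 20 libraries, and 94.0% of the 3655 pairs were above 0, while the mean over all genes was 0.00065. Without libraries 1 and 3 the mean was 0.547. These r values are descriptions of libraries that share depth, RNA quality and dissection. Rpl26 (r = 0.959), Rpl27a (0.945) and Rpl9 (0.941), all of the large subunit, followed the mean of the other members most closely. Rps10 (−0.18), Rps12-ps3 (0.012) and Rpl36al (0.027) followed it least, and their lowest counts in a library were 27, 4 and 3. Without libraries 1 and 3 the r of Rps10 was 0.198. Low r was also seen among members with many counts in every library. Rps2 (at least 1684 counts) had an r of 0.304, Rps15a (at least 1184) 0.326 and Rpl29 (at least 908) 0.369. With libraries 1 and 3 left out, these were 0.468, 0.239 and 0.647. The 14 members with the strict tract at position 1 had a median r of 0.826, of which Rps10 was lowest, and the 48 tested members with a start but no such tract had 0.841.

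**Figure D4:**
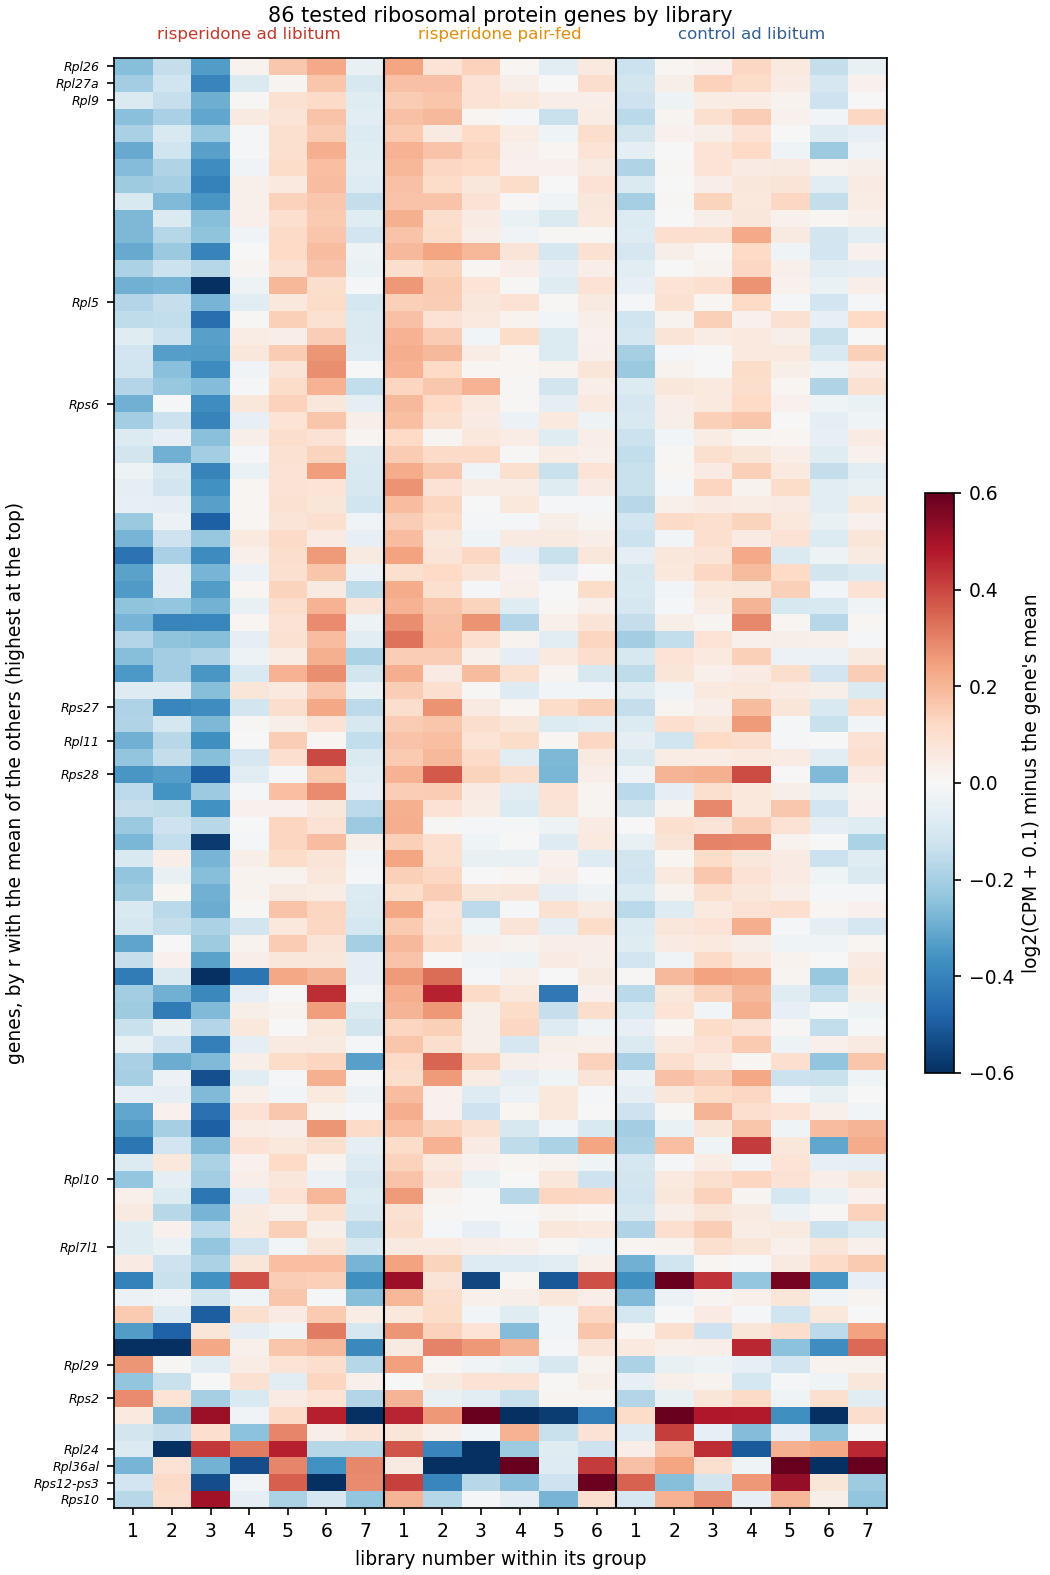
Deviation of each of the 86 tested ribosomal protein genes from its own mean in each library, as log2(CPM + 0.1), with genes ordered by their correlation with the mean of the others, some of those described in the text labelled, and libraries by group. Most genes are low in ad libitum risperidone libraries 1, 2, 3 and 7 and in control libraries 1 and 6. The most genes are high in ad libitum libraries 5 and 6, pair-fed libraries 1 and 2 and control libraries 3 and 4. The least correlated genes, down to Rps10 at the bottom, do not follow.

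Other gene groups varied with the members by library. In ad libitum library 3 the members' median deviation was −0.28 on the log2 scale, and that of 77 nuclear-encoded respiratory chain genes was −0.30 and of 17 other TOP mRNAs −0.31. In pair-fed library 1, which had the highest summed CPM of members, the values were 0.18, 0.19 and 0.10. The mean pairwise r was 0.598 among the respiratory chain genes, 0.439 among the other TOP mRNAs and 0.365 among 77 mitochondrial ribosomal protein genes, but 0.0923 among 30 genes of ribosome assembly and rRNA synthesis and 0.0822 among 20 genes of mTORC1 and S6 kinase. Without ad libitum libraries 1 and 3 these were 0.514, 0.211, 0.258, 0.0176 and 0.0552. The slope of log2 level on log2 gene length, a measure of how a library favours long transcripts, was highest in ad libitum library 1 (0.048) and lowest in pair-fed library 1 (−0.032). With the length trend removed, the members' median log2 fold change was 0.078 in pair-fed against ad libitum risperidone and −0.063 in ad libitum risperidone against control. With libraries 1 and 3 left out as well, a setting added after seeing the data, these were 0.032 and −0.0055. The part of RNA quality, length and the dissected tissue in the members' levels was not tested further.

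**Figure D5:**
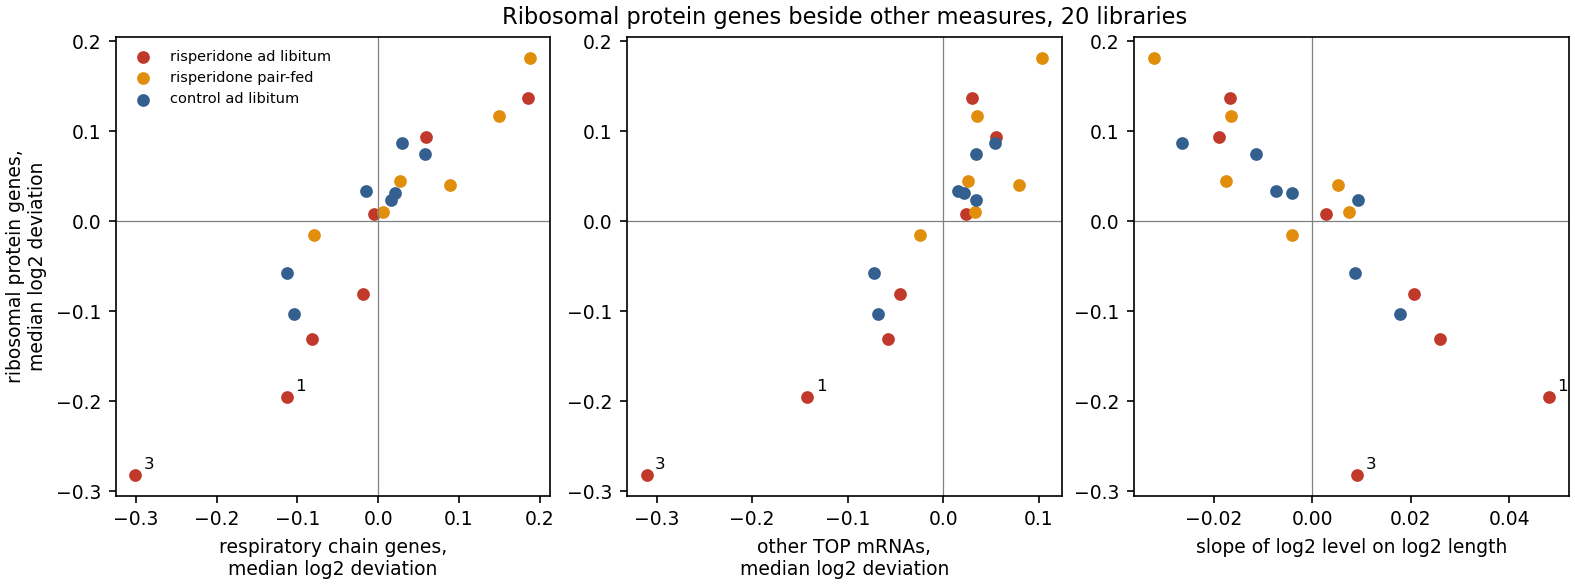
Median log2 deviation of the ribosomal protein genes in each of the 20 libraries, against that of the respiratory chain genes (left), of other TOP mRNAs (middle) and the slope of log2 level on log2 gene length (right), with points coloured by group. Ad libitum risperidone library 3 lies lowest on both gene groups (−0.30 and −0.31) and library 1 has the steepest slope (0.048).

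The related genes were measured in the same fit. Among ribosomal proteins outside the symbol rule, Rpsa, a small subunit protein, and Fau, a ubiquitin-like fusion with S30, stood at 174 and 159 CPM per kb in control. Rack1, a scaffold on the small subunit, stood at 23.9 CPM per kb. None of these 3, of the 17 other TOP mRNAs, of the 30 assembly genes, of the 77 mitochondrial ribosomal protein genes or of the 77 respiratory chain genes passed the test in any of the 4 comparisons. At an unadjusted p under 0.05 in pair-fed against ad libitum risperidone, 14 respiratory chain genes, 7 mitochondrial ribosomal protein genes and 2 other TOP mRNAs lay above and 0 below, against 6.09% of all genes above and 7.44% below. The assembly genes had 3 above and 1 below, the mTORC1 genes 0 above and 1 below, and Rpsa, Fau and Rack1 none. When ad libitum libraries 1 and 3 were left out, 1 respiratory chain gene, 1 mitochondrial ribosomal protein gene, 1 other TOP mRNA and 4 assembly genes lay above, and 1 assembly gene below, against 5.18% and 5.28% of all genes. Of the 77 respiratory chain genes 72 had a log2 fold change above 0 there, with a median of 0.097, beside 0.12 for the members. Left without the 2 libraries, 58 lay above 0, with a median of 0.037. Of the 30 assembly genes 18 lay above 0, with a median of 0.025. Against control, ad libitum risperidone had 13 of the 17 other TOP mRNAs and 23 of the 30 assembly genes below 0, with medians of −0.049 and −0.031. It had 45 of the 77 respiratory chain genes and 43 of the 77 mitochondrial ribosomal protein genes below 0, with medians of −0.0098 and −0.0062, beside a median of 0.0077 over all genes. Of all genes, 52.9% lay above 0. With libraries 1 and 3 left out, the lists had 8 of 17, 19 of 30, 17 of 77 and 28 of 77 below 0 in the same order, with medians of 0.00062, −0.041, 0.055 and 0.022. Then 49.7% of all genes lay above 0. Of the 20 mTORC1 genes, Ddit4, which codes for the mTORC1 inhibitor REDD1, passed in both comparisons with control and in their average, and no other did. In ad libitum and pair-fed risperidone against control and in their average, 0.0615%, 0.486% and 0.33% of all genes passed. Without ad libitum libraries 1 and 3, Sesn1, which codes for a stress-induced inhibitor of mTORC1, was also called lower in pair-fed risperidone against control, with a log2 fold change of −0.20 (adjusted p = 0.0152), against −0.19 (adjusted p = 0.278) with all libraries.

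Ddit4 ranged from 22.0 to 27.0 CPM (median 24.1) in ad libitum risperidone, from 19.0 to 24.2 CPM (median 21.7) in pair-fed risperidone and from 29.0 to 31.0 CPM (median 30.0) in control. Every risperidone library lay below every control library. Of all genes, 0.224% lay wholly below control in ad libitum risperidone and 0.861% in pair-fed risperidone. Against control it fell by 0.30 in ad libitum risperidone (log2, edgeR adjusted p = 0.0343, SE 0.053) and by 0.47 in pair-fed risperidone (adjusted p = 4.65e-05, SE 0.055). The ad libitum call depended on single libraries. It held in 11 of 20 fits that left out 1 library, with adjusted p-values of 0.016 to 0.0943 and log2 fold changes of −0.33 to −0.28. It was lost when ad libitum library 2, 6 or 7 or control library 1, 2, 3, 4, 5 or 6 was dropped, when the groups were fitted alone (adjusted p = 0.053) and with a replicate block (adjusted p = 0.0648, or 0.0614 with length-trend offsets as well). Without ad libitum libraries 1 and 3 it was −0.28 (adjusted p = 0.0286). The pair-fed call held in 20 of 20 such fits, with adjusted p-values of 1.5e-05 to 0.00027 and log2 fold changes of −0.50 to −0.43. In pair-fed against ad libitum risperidone its log2 fold change was −0.17 (adjusted p = 0.216, SE 0.056). The members, whose translation mTORC1 controls, were measured here only as mRNA.

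Levels of cell type markers were set beside those of the members. The 9 markers of hypothalamic neurons had a median log2 fold change of −0.29 in ad libitum risperidone against control and 0.24 in pair-fed against ad libitum risperidone, with 0 called, and −0.19 and 0.13 with ad libitum libraries 1 and 3 left out. Genes within this list differed. Avp ranged from 24.2 to 175 CPM in ad libitum risperidone and from 57.3 to 244 CPM in control. By contrast, Nkx2-1 ranged from 23.3 to 36.2 and from 27.3 to 34.0 CPM, and Npy from 39.7 to 85.4 and from 40.5 to 56.5 CPM. The 5 tested ependymal markers had a median log2 fold change of −0.34 in ad libitum risperidone against control and 0.32 in pair-fed against ad libitum risperidone, and their summed level ranged from 24.7 to 45.5 CPM in ad libitum risperidone, 38.7 to 53.3 CPM in pair-fed risperidone and 42.3 to 51.9 CPM in control. With the 2 libraries left out their medians were −0.28 and 0.28. The 8 tested markers of cortex, hippocampus and amygdala had medians of 1.18 and −1.10 in these comparisons, with 0 called. Without ad libitum libraries 1 and 3 the medians were 0.19 and −0.20. Of these 2 libraries only library 1 was high in these markers. Their median deviation was 2.78 on the log2 scale in library 1 and −0.19 in library 3. The summed level of all 9 markers on this list reached 3977 CPM in ad libitum risperidone, in library 1. It was at most 681 CPM in pair-fed risperidone and 728 CPM in control. Oligodendrocyte markers summed to 3206 to 9657 CPM in ad libitum risperidone, 6865 to 9156 CPM in pair-fed risperidone and 5945 to 8314 CPM in control. The lowest ad libitum sum was that of library 1. The median deviation of these markers on the log2 scale was −1.18 in that library and −0.19 in library 3. In ad libitum libraries 2, 4, 5, 6 and 7 it was 0.041 to 0.40, against −0.024 to 0.27 in pair-fed risperidone and −0.23 to 0.20 in control. The 5 markers of red cells and reticulocytes were lowest in ad libitum library 1, at a median of −1.30 from their own means on the log2 scale, and stood at −0.71 in ad libitum library 3 and 0.84 in pair-fed library 1. Their median log2 fold change was −0.24 in ad libitum risperidone against control, 0.32 in pair-fed risperidone against control and 0.57 in pair-fed against ad libitum risperidone, with 0 called. With ad libitum libraries 1 and 3 left out these were −0.027, 0.32 and 0.35. No marker gene was at 0 in all libraries of a group, and the part of cell composition in the members' levels was not tested.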

How the data were processed

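Per the labels' protocols, RNA of hypothalamus slices was read on DNBseq with pairs of 150 bp. The values are raw read counts per gene, deposited by the authors in 1 table with no normalization. STAR, featureCounts and DESeq2, with the builds GRCm38 and mm10, are named per the submitters' processing notes. The sources used here give no version, strand setting or filter. Symbols and exons came from GENCODE vM21 (GRCm38), and 241 genes had no symbol.

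Counts were tested with edgeR 4.0.16 (R 4.3.3) by the quasi-likelihood F test, two-sided, with TMM scaling, filterByExpr at a minimum count of 10, and 1 coefficient per group over 20 libraries. P-values were adjusted by Benjamini-Hochberg over all 17893 genes, at a threshold of 0.05. The common biological coefficient of variation was 11.3%. DESeq2 1.42.0 and limma 3.58.1 served as alternatives. The tests were tried on simulated data with known answers. Over 57 pairs of libraries from 1 group, chi-square per degree of freedom was at least 2.64, so no library was treated as a copy of another.

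The members and gene lists were chosen with earlier results of these data known, so no test of a list was made. Named genes were any called member or member with groups that did not overlap, the 3 with the smallest p in each direction per comparison, the 5 highest and lowest by CPM per kb, paralogs with their partners, the 3 least correlated, Rps19bp1, Rpsa, Rack1 and Fau, up to 2 per related list by smallest p, and Rps6, Rpl5, Rpl11, Rplp0, Rplp1, Rplp2 and Rps27a. Rpl26, Rpl27a, Rpl9, Rps2, Rps15a and Rpl29 in the account of correlation, and Rpl13a, Rpl19 and Rps20 in that of levels, were named after their values were seen. The alternatives were other scalings, filters and tools, a replicate block, length-trend offsets and leaving out libraries. Some genes that this rule names are not reported here. No value column was without a sample.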

Additional observations from a re-analysis of the deposited data

Results flagged for a closer look

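A library far from the others of its group was looked for in 120 combinations of a group with a named member, the summed CPM or the subunit ratio, with Dixon's ratio at its 95% critical value, and 6 were found. Chance flags about 1 in 20 such groups. Low ends were seen in ad libitum risperidone library 3 for Rps19bp1 (8.45 CPM, with the next at 11.3 CPM), and in control library 1 for Rpl10 (288 CPM, next 320 CPM). High ends were seen in pair-fed library 1 for Rpl29 (159 CPM, next 136 CPM), in ad libitum risperidone library 3 for Rps10 (3.80 CPM, next 2.87 CPM) and in control library 4 for Rpl39 (50.7 CPM, next 42.6 CPM). In control library 5, 1 count of Rpl39l (0.0558 CPM) stood against 0 in the other control libraries. Ad libitum risperidone library 3 had 9748005 counts, and pair-fed library 1 had the highest summed CPM of members. No member had every library of the risperidone groups on opposite sides of the control mean.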

How the results depend on the processing

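Over 34 other settings the number of members called was 0 in 135 of 136 counts. The exception was pair-fed against ad libitum risperidone without ad libitum replicate 5, with 1 (Rpl11), so that leaving out single libraries gave 0 to 1. Without single libraries the medians ran from −0.11 to −0.045 in ad libitum risperidone against control, 0.024 to 0.061 in pair-fed against control, 0.080 to 0.15 in pair-fed against ad libitum and −0.031 to 0.0056 for the average, and with other settings from −0.089 to −0.0055, 0.027 to 0.047, 0.032 to 0.13 and −0.018 to 0.019 in the same order. The direction of the average thus depended on the libraries used. Of 812 values of named members, 797 kept direction and side and 14 turned direction, all of Rps2 or Rpl29 near 0. With limma-voom, Rps2 was −0.018 in ad libitum risperidone against control and 0.016 in pair-fed against ad libitum, and Rpl29 was 0.0030 between the risperidone groups. Without ad libitum replicates 1 and 3 these were −0.0069, 0.0079 and 0.0059, and with length-trend offsets as well, a setting added after seeing the data, the Rps2 value against control was −0.00608. Leaving out single libraries gave −0.035 to 0.045, −0.053 to 0.038 and −0.067 to 0.020 for the same values. Same-numbered libraries correlated at a median of −0.025 over 19 pairs, and the numbers were not taken to pair them. With a replicate block, 0 members were called in each comparison, with medians of −0.079, 0.044, 0.12 and −0.011. Low-count members such as Rpl24 and Rpl36al had standard errors of 0.19 or more, so moderate differences could not be seen there.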
